A study of Mus musculus with 9 samples.

Results

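Skin given bleomycin together with nitrate was compared with skin given bleomycin alone, 3 libraries against 3, out of 9 libraries of mouse skin in all. The members were taken by their column names, and a gene was tested when it reached 1 FPKM (fragments per kilobase of gene, scaled to the size of the library) in at least 3 of these 6 libraries, which 14050 of the 54532 genes in the table did. The mice of every group carried the wild-type genotype. The bleomycin group received bleomycin alone, the nitrate group received bleomycin with nitrate therapy, which the title of the series describes as topical, and the third group, untreated healthy wild-type mice, serves below for orientation. All 3 groups share the tissue, the RNA kit and the library kit. Neither strain, age, dose, timing or site of treatment nor how many mice supplied the RNA is stated in the labels, so a p-value measures the spread between these libraries, which may in part be technical.

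The antibiotic bleomycin cuts DNA, and injected into mouse skin it brings on inflammation and scarring that serve as a model of systemic sclerosis, a disease of hardening skin. Nitrate can be reduced by bacteria and tissues to nitrite and on to nitric oxide, a gas that widens vessels and acts on immune cells. Wounded keratinocytes release alarm signals, among them interleukin-1 and interleukin-33. Interleukin-33 binds ST2, the product of Il1rl1, on mast cells, type 2 innate lymphoid cells and some T cells, while interleukin-1 drives the chemokines that draw neutrophils and monocytes. Fibroblasts respond to such signals, and to TGF-beta, with collagen and crosslinking enzymes.

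The 6 libraries held 16245572 to 17841105 recovered reads. They differed in tissue content within the groups as well as between them. The first principal component of the tested genes held 58.6% of the variance and had bleomycin 1 and nitrate 3 at its ends. Keratins and keratin-associated proteins of the growing hair, 21 genes, had a mean log2(FPKM + 1) of 1.08, 6.22 and 7.62 with bleomycin and of 8.71, 6.35 and 9.18 with nitrate, in the order of libraries 1, 2 and 3. Bleomycin 1 thus had little growing hair, and nitrate 1 and 3 had the most. Skeletal muscle genes went from 7.28 to 9.47 with bleomycin and from 7.0 to 9.04 with nitrate, with bleomycin 1 and nitrate 2 highest. The part of hair or muscle content in the differences below was not tested beyond the fits given beside them. All 9 libraries had Xist at or near 0 and transcripts of the Y chromosome, as male tissue has. Keratinocyte, fibroblast, endothelial, muscle, fat and hair genes were all present, as skin with its deeper layers would hold.

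No gene passed limma's test at a Benjamini-Hochberg adjusted p of 0.05, which is 0% of the 14050 tested, and the smallest adjusted p was 0.0598. Without adjustment 1501 genes had a p under 0.05 with lower values after nitrate (10.7%) and 1076 with higher values (7.66%), and voom on the recovered reads likewise called 0 genes, with 1365 lower and 1174 higher at an unadjusted p under 0.05. At the looser adjusted p of 0.10, which is used here for description, 143 genes had lower values (1.02%) and 38 higher values (0.270%). Of these 24 and 3 genes were tested only because 1 group was high, as explained below. The median difference over all tested genes was -0.004 on the log2 scale, and 50.5% of estimates lay below 0 and 49.5% above. The excess of lower over higher values thus sat among the genes with the smallest p and the largest differences: leaving out genes of that kind, 384 genes with an unadjusted p under 0.05 and a difference of at least 1 were lower and 137 higher.

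**Figure D1:**
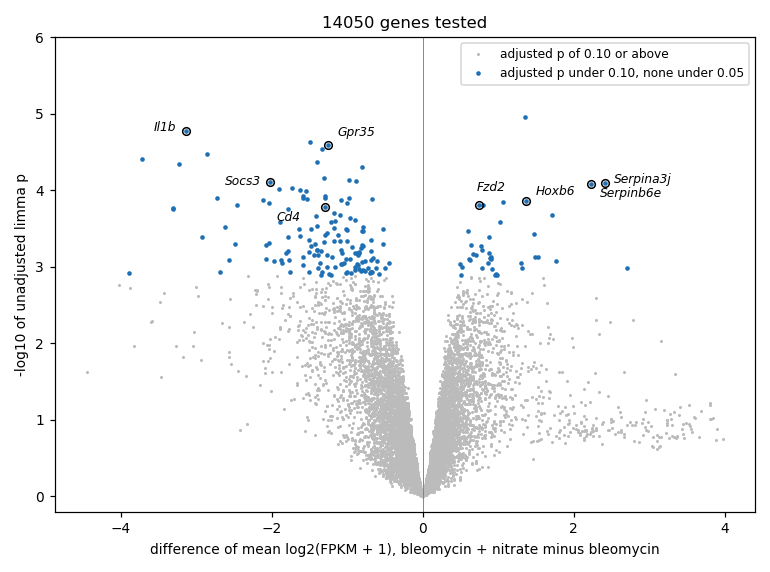
Each point is 1 of the 14050 tested genes, with the difference of mean log2(FPKM + 1) between nitrate and bleomycin libraries on the x axis and -log10 of the unadjusted limma p on the y axis. Blue points, 143 on the left and 38 on the right, have an adjusted p under 0.10, and no point has one under 0.05.

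Below, a triple of values gives libraries 1, 2 and 3 of a group in FPKM, and a difference is that of the group means of log2(FPKM + 1), nitrate minus bleomycin, ± its standard error, with the adjusted p of limma. The added 1 makes differences of genes near 1 FPKM smaller than log2 ratios. A list of genes is described by its median difference, by how many members had all 3 nitrate libraries below, or above, all 3 bleomycin libraries, and beside the same counts over the genes tested. Some genes stand in more than 1 list, so the lists are not independent of one another. A gene that reached 1 FPKM in all 3 libraries of 1 group and in none of the other had to differ to be tested. There were 153 such genes (1.09%), and they are left out of the list counts. Among the other 13897 genes the groups did not overlap for 1617 with lower values (11.6%) and for 1248 with higher values (8.98%).

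**Figure D2:**
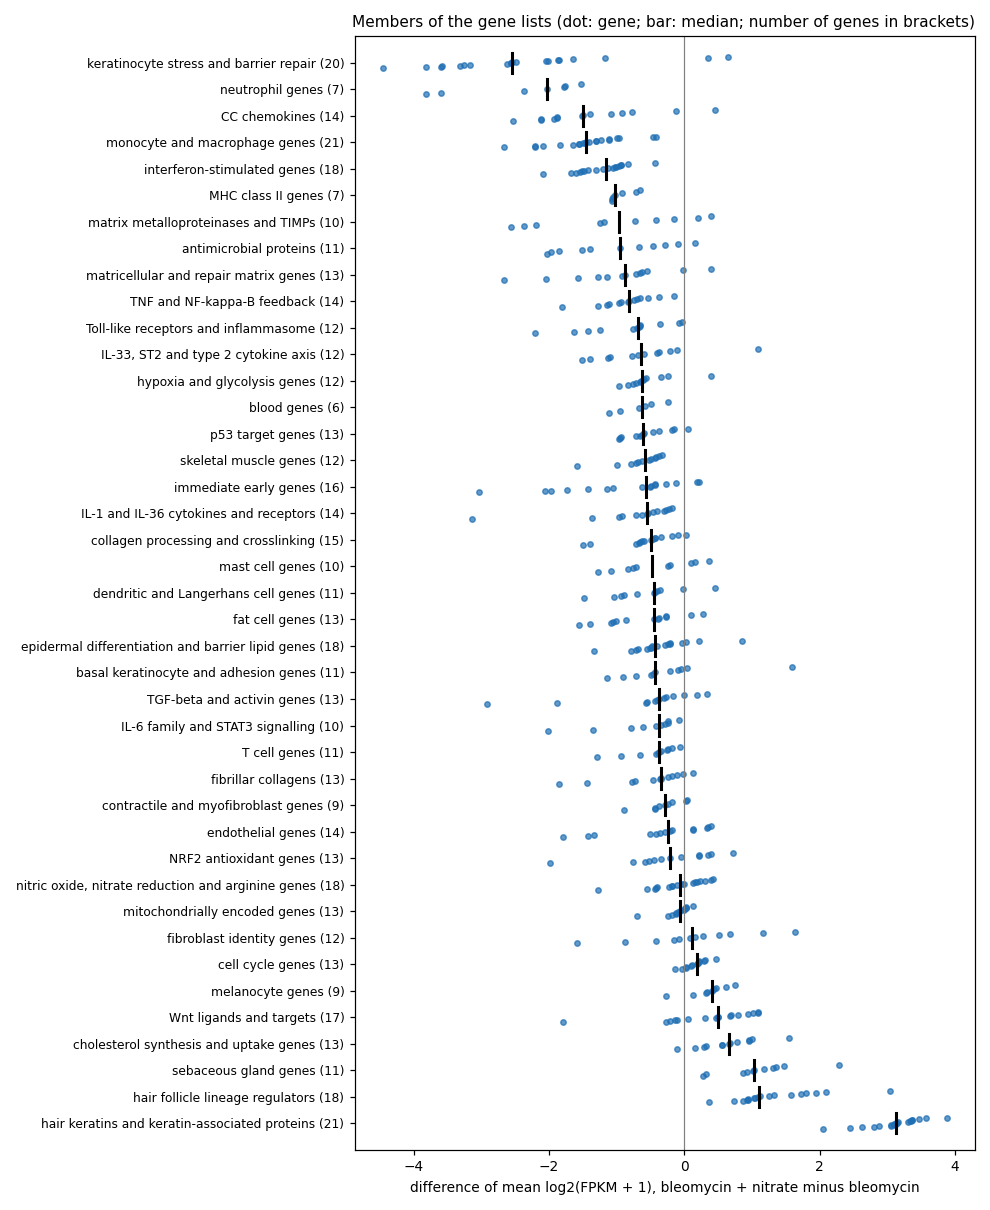
Each row is a list of genes, each dot 1 member with its difference of mean log2(FPKM + 1) between nitrate and bleomycin libraries on the x axis, and each bar the median of the list. Stress keratinocyte, neutrophil, chemokine and macrophage lists lie to the left, with medians from -2.56 to -1.46, and sebaceous and hair lists to the right, with medians from 1.03 to 3.13.

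Il1b and Cxcr2, a cytokine of inflammation and the receptor of the chemokines that call in neutrophils, were among the genes with the smallest p, with lower values after nitrate. The stretches of DNA before their starts are shown first, with those of the chemokines Cxcl2 and Cxcl1. Both chemokines were tested only because they were high with bleomycin, so their direction and their p support nothing, and their sequences are shown as a description. The sequences are those of RefSeq for GRCm38.p6, from 250 bases before the RefSeq start of the gene and ended before the gene as the table draws it, for the 4 genes with the smallest p among interleukin-1, neutrophil chemokine and CC chemokine genes that had an entry, and capitals mark matches to the motifs searched:
Il1b (chr2:129371140-129371389, minus strand): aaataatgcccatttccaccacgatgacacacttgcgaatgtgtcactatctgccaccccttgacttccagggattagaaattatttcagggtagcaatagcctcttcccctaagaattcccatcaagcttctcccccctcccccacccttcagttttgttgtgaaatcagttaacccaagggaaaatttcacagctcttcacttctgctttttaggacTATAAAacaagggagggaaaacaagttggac
Cxcl2 (chr5:90903649-90903870, plus strand): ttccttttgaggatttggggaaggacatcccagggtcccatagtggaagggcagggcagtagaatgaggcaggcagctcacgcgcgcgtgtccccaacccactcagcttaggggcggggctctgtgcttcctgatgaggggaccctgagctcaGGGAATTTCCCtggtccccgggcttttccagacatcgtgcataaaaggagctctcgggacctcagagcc
Cxcl1 (chr5:90890995-90891240, plus strand): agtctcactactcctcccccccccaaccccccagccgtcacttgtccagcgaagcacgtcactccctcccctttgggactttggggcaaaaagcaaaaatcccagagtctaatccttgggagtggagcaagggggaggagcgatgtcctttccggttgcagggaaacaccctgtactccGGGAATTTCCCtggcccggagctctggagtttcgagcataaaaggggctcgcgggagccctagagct
Cxcr2 (chr1:74153744-74153988, plus strand): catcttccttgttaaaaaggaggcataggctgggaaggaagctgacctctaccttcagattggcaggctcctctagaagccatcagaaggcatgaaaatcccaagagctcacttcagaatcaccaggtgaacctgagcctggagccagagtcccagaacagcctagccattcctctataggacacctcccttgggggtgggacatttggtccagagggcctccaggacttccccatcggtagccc
On both strands the NF-kappa-B consensus, the AP-1 motif TGANTCA and the TATA box TATAAA were searched. Cxcl2 and Cxcl1 each hold the consensus of NF-kappa-B, a factor switched on by interleukin-1, as GGGAATTTCC, from 69 to 60 bases before the start of the gene in the table in Cxcl2 and from 67 to 58 in Cxcl1, with a further match 1 base along on the minus strand. Il1b holds TATAAA from 31 to 26 bases before its start. The AP-1 motif was not found in any of the 4, and none of the 3 motifs in Cxcr2. Of 32851 RefSeq windows of 250 bases, 7.25% held the NF-kappa-B consensus, 6.75% the AP-1 motif and 12.4% TATAAA. A match is given as a description, and whether a site works was not tested.

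Il1b, which encodes the secreted cytokine interleukin-1 beta, was at 29.5, 17.4 and 37.3 FPKM with bleomycin and at 3.83, 2.15 and 1.05 with nitrate. Every nitrate library lay below every bleomycin library, and nitrate 3 was close to the controls, at 1.23, 1.03 and 0.452. The difference was -3.14 ± 0.36 (adjusted p = 0.0598). It was -3.00 with the hair keratin mean as a covariate (adjusted p = 0.191) and -2.77 without both bleomycin 1 and nitrate 3 (adjusted p = 0.314). Of the 14 tested of 15 interleukin-1 and interleukin-36 genes all 14 estimates were below 0 with a median of -0.55, and 4 did not overlap, all lower. Besides Il1b these were Il18bp, a decoy for interleukin-18, Il1rn, the antagonist of the interleukin-1 receptor, and Il1rap, the shared receptor subunit. Il1rn was at 15.9, 12 and 14.6 FPKM against 8.80, 9.19 and 9.67 (-0.56 ± 0.17, adjusted p = 0.158). The antagonist thus differed far less than the cytokine. The interleukin-36 gene Il1f6 was at 69.2, 23.8 and 43.0 FPKM against 6.11, 34.9 and 16.5, and its groups overlapped through nitrate 2 (-1.37 ± 0.57, adjusted p = 0.249).

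Chemokines for neutrophils act through Cxcr2, their receptor. Cxcl5 was at 10.2, 13.2 and 4.23 FPKM with bleomycin and at 0.643, 0.293 and 0.0564 with nitrate. For Cxcl1 the values were 7.20, 3.66 and 13.5 against 0.465, 0.728 and 0.308, and for Cxcl2 1.22, 2.48 and 3.04 against 0.132, 0 and 0.0254. All 3 genes were tested only because they were high with bleomycin, so their direction was set by the filter and they add nothing to the counts. Cxcr2 was at 9.74, 6.15 and 5.38 FPKM against 1.18, 2.20 and 0.724 (-1.78 ± 0.28, adjusted p = 0.0610). Csf3, the growth factor of neutrophils, stayed below the filter with 140 reads over the bleomycin libraries and 8 over the nitrate libraries.

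CC chemokines, which attract monocytes, T cells and eosinophils, had a median of -1.51 over 14 tested genes of 16, and 10 did not overlap, all with lower values after nitrate. Ccl4 was at 5.39, 6.38 and 10.4 FPKM with bleomycin and 1.73, 0.827 and 0.319 with nitrate (-2.12 ± 0.32, adjusted p = 0.0598). Ccl8 was among the most abundant, at 251, 166 and 388 FPKM against 131, 91.0 and 59.1 (-1.50 ± 0.39, adjusted p = 0.130). Controls held Ccl8 at 118, 127 and 69.0, within the range of the nitrate libraries. The monocyte chemokines Ccl2 and Ccl7 were lowest in nitrate 3, at 2.26 and 4.0 FPKM, and highest in bleomycin 3, at 39.8 and 112. Ccl27a, a chemokine that keratinocytes make at rest, was the exception, at 4.44, 13.1 and 12.1 FPKM against 12.4, 13.5 and 12.1 (0.45 ± 0.35, adjusted p = 0.536), with bleomycin 1 alone low.

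Socs3, an early target and brake of STAT3 signalling, was at 64.6, 34.0 and 55.9 FPKM with bleomycin and 14.2, 11.8 and 9.0 with nitrate, and controls were at 14.2, 8.76 and 8.18. The nitrate libraries thus lay within or near the range of the controls (-2.02 ± 0.29, adjusted p = 0.0598). The cytokines Il6 and Osm, which act through STAT3, were low, and both reached 1 FPKM in the bleomycin libraries alone. Il6 was at 1.11, 1.38 and 2.83 FPKM against 0.404, 0.112 and 0.108. Il6st, the shared receptor subunit, overlapped at 37.4, 46.9 and 38.5 FPKM against 39.2, 42.1 and 22.3 (-0.28 ± 0.23, adjusted p = 0.541). Of 10 members of the interleukin-6 and STAT3 list that the filter did not fix, 5 did not overlap, all lower, and the median was -0.38.

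Genes of the TNF and NF-kappa-B feedback list, only some of which limit NF-kappa-B, had lower values for all 14 members not fixed by the filter (median -0.83). Of these 11 did not overlap. Nfkbia, the inhibitor that holds NF-kappa-B in the cytosol, was at 91.9, 54.9 and 103 FPKM with bleomycin and 34.5, 50.3 and 38.8 with nitrate (-0.97 ± 0.24, adjusted p = 0.121). Controls had 76.7, 82.7 and 70.9, so the nitrate libraries lay below both other groups. Ptgs2, the inducible cyclooxygenase, was at 9.86, 3.0 and 4.63 FPKM against 1.42, 0.453 and 0.631 (-1.81 ± 0.34, adjusted p = 0.0899). Of the Toll-like receptor and inflammasome genes, 9 of 12 did not overlap, all lower, with a median of -0.68. Cd14, the co-receptor for bacterial lipopolysaccharide, led them with 27.7, 21.1 and 63.7 FPKM against 12.9, 7.19 and 2.64 (-2.21 ± 0.51, adjusted p = 0.116). The adaptor Pycard and Casp1, the core of the inflammasome that cuts interleukin-1 beta, differed by -0.03 ± 0.13 and -0.08 ± 0.14. The inflammasome gene Nlrp3 was at 1.89, 1.48 and 3.30 FPKM against 0.510, 0.256 and 0.0777, and the filter fixed its direction.

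Among genes with the smallest p outside these lists was Gpr35, a receptor of gut and immune cells, at 7.02, 5.55 and 6.43 FPKM with bleomycin against 2.42, 1.86 and 1.99 with nitrate (-1.25 ± 0.15, adjusted p = 0.0598). Gpr171 was at 4.52, 3.37 and 5.86 FPKM against 1.05, 1.15 and 0.709 (-1.49 ± 0.18, adjusted p = 0.0598). Pmaip1, which encodes Noxa, a trigger of cell death, was at 13.5, 9.88 and 11.2 FPKM against 4.70, 3.45 and 3.81 (-1.33 ± 0.16, adjusted p = 0.0598). The spread within each group was small beside the gap between them in all 3 genes. Classical targets of p53, the factor that answers DNA damage, were also mostly lower, 12 of 13 below 0 with a median of -0.61, and 4 did not overlap. Mdm2, the feedback inhibitor of p53, was at 22.6, 13.5 and 21.5 FPKM against 14.5, 10.3 and 10.9, and bleomycin 2 overlapped nitrate 1. Immediate early genes, which rise within minutes of stress or handling, had a median of -0.57 over 16 members, and 5 did not overlap, all lower. Fosb was at 65.6, 6.72 and 88.3 FPKM against 3.38, 5.33 and 2.05 (-3.03 ± 0.85, adjusted p = 0.136), with bleomycin 2 near the nitrate libraries.

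**Figure D3:**
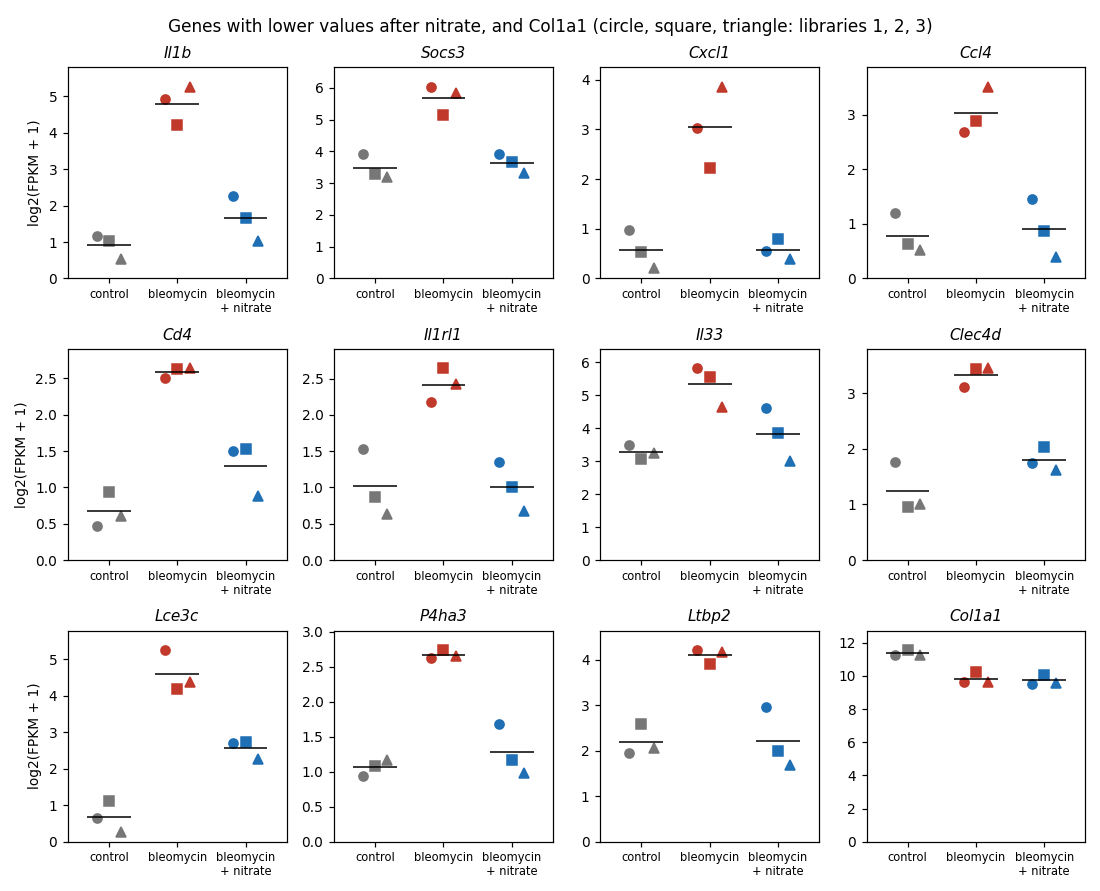
Each panel is 1 gene, with log2(FPKM + 1) on the y axis starting at 0, 1 symbol per library and a line at the group mean for control, bleomycin, and bleomycin with nitrate. Cxcl1 is shown for its values, since the filter fixed its direction. For Il1b, Socs3, Cd4, Il1rl1 and P4ha3 every nitrate library lies below every bleomycin library, while for Col1a1 the bleomycin libraries at 792, 1214 and 805 FPKM and the nitrate libraries at 740.5, 1063 and 776 FPKM overlap.

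Markers of white cells had lower values with nitrate across several lineages, and in such bulk tissue fewer cells of a type and less RNA per cell cannot be told apart. Neutrophil genes passed the filter for 8 of 17, of which Clec4e only through the bleomycin libraries, and the other 7 all had estimates below 0 with a median of -2.03, with 6 that did not overlap. S100a8 and S100a9, abundant in neutrophils but also made by stressed keratinocytes, had the highest levels. Both are counted in the keratinocyte stress list too, and Lcn2 also among the antimicrobial proteins. Retnlg, Ngp, Ltf and Camp did not pass the filter and have no part in the median. S100a8 was at 1389, 198 and 198 FPKM with bleomycin and 33.9, 88.8 and 8.94 with nitrate (-3.60 ± 0.95, adjusted p = 0.130). Bleomycin 1, which has the most keratinocyte stress RNA, was far above the rest. Csf3r, the receptor of the neutrophil growth factor, was at 8.06, 8.53 and 7.87 FPKM against 3.83, 1.38 and 0.684 (-1.77 ± 0.35, adjusted p = 0.0905). The granule genes Elane and Mpo and the surface gene Ly6g had 2, 3 and 1 reads over the bleomycin libraries and 2, 13 and 3 over the nitrate libraries, too few to show a difference at this depth, since a count of 0 in 1 library allows up to 3 reads. Trem1, a receptor that amplifies inflammation, had 221 reads with bleomycin, 5 with nitrate and 0 in the controls.

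Monocyte and macrophage genes had estimates below 0 for 21 of 21, with a median of -1.46, and 14 did not overlap. The complement gene C1qa was at 200.4, 126 and 304 FPKM with bleomycin and 128, 58.2 and 32.8 with nitrate (-1.64 ± 0.49, adjusted p = 0.148). Fcgr3, an antibody receptor, was at 48.2, 43.0 and 54.6 FPKM against 26.4, 16.4 and 10.1 (-1.50 ± 0.29, adjusted p = 0.0899). The groups overlapped in C1qa, where nitrate 1 reached bleomycin 2, and not in Fcgr3. The nitrate libraries differed among themselves in the same way for nearly every gene of this list. Nitrate 1 was the highest nitrate library in 19 of 21 and nitrate 3 the lowest in 18 of 21. The mean of the list was 4.91, 4.58 and 5.15 in the bleomycin libraries, 4.25, 3.22 and 2.82 in the nitrate libraries and 4.31, 3.64 and 3.46 in the controls. Nitrate 2 and 3 lay below every control, and nitrate 1 did not. Arg1, an enzyme of alternatively activated macrophages and of keratinocytes, stood apart from the list, at 19.6, 15.0 and 9.34 FPKM against 10.4, 5.78 and 17.3 (-0.42 ± 0.36, adjusted p = 0.574).

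MHC class II genes, which present antigen to CD4 T cells, did not overlap for 7 of 7, all lower, with a narrow range of differences from -1.07 to -0.66. H2-Ab1 was at 222, 217 and 337 FPKM with bleomycin and 159.5, 148 and 72.7 with nitrate, with 82.7, 143 and 121 in the controls (-1.07 ± 0.34, adjusted p = 0.162). For each of the 7 genes the nitrate mean lay between the control and the bleomycin mean. Of 11 dendritic and Langerhans cell genes 5 were lower without overlap and 1 higher, with a median of -0.45. Ccr7, which guides dendritic cells and T cells to lymph nodes, was at 3.26, 3.91 and 5.05 FPKM against 1.49, 0.994 and 0.186 (-1.48 ± 0.27, adjusted p = 0.0872). Cd207, the langerin of Langerhans cells, was at 7.66, 8.23 and 10.7 FPKM against 4.55, 10.9 and 5.04, so its groups overlapped (-0.41 ± 0.28, adjusted p = 0.476). Epcam, also a marker of hair follicle epithelium, was the gene with higher values.

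Genes that interferon switches on had estimates below 0 for 18 of 18 with a median of -1.16, and 12 did not overlap. Nitrate 1 stood apart: it was the highest nitrate library in 18 of 18. Ifit3, an antiviral protein, was at 44.4, 36.1 and 45.1 FPKM with bleomycin and 32.5, 12.7 and 5.75 with nitrate (-1.55 ± 0.66, adjusted p = 0.262). The controls were uneven too, at 48.4, 10.6 and 12.1, and control 1 reached the bleomycin level. Irf7, which drives interferon production, was at 43.1, 30.5 and 51.3 FPKM against 25.7, 6.59 and 3.67 (-2.09 ± 0.73, adjusted p = 0.191). The means of 17 of the 18 genes in the nitrate group lay below the control means.

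**Figure D4:**
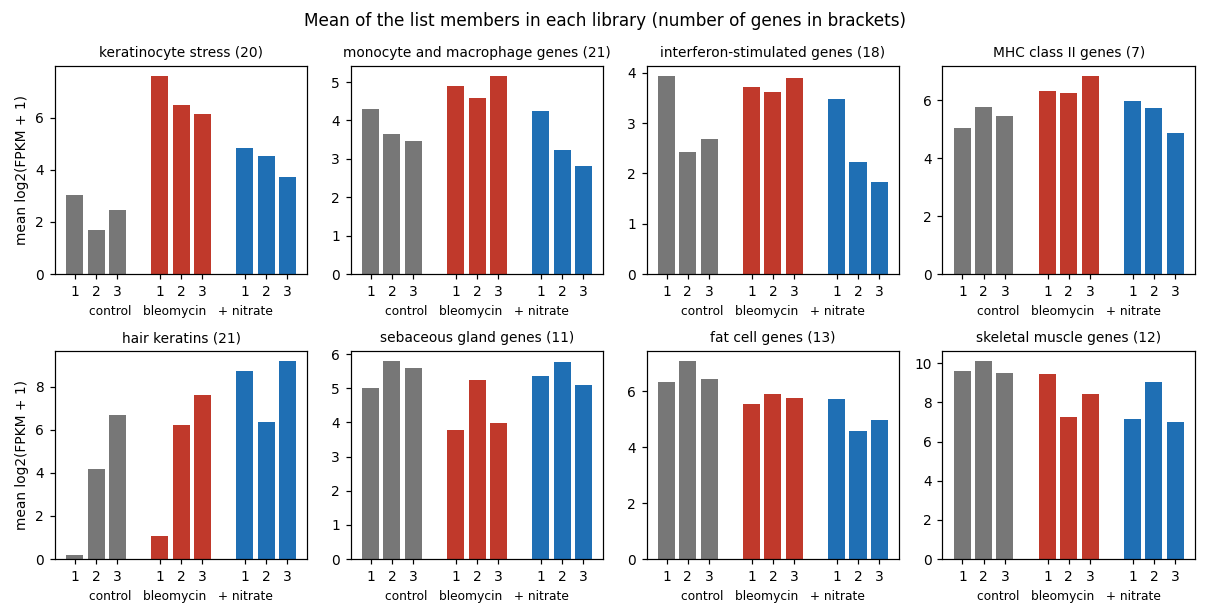
Each bar is the mean log2(FPKM + 1), on a y axis from 0, of the members of a list in 1 library, grouped as control, bleomycin, and bleomycin with nitrate. Stress keratinocyte genes separate the groups (6.16 to 7.59 with bleomycin, 3.74 to 4.82 with nitrate), while in hair and muscle genes the groups overlap.

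The series is titled for ST2-bearing CD4 T cells, so the interleukin-33 and ST2 axis was examined gene by gene. Il33 was at 55.6, 45.6 and 24.3 FPKM with bleomycin and 23.3, 13.5 and 7.05 with nitrate. Bleomycin 3 and nitrate 1 nearly met, and the difference was -1.52 ± 0.41 (adjusted p = 0.132). It was -0.87, with an adjusted p of 0.521, without both bleomycin 1 and nitrate 3. Il1rl1, the receptor ST2, was at 3.51, 5.24 and 4.36 FPKM against 1.54, 1.01 and 0.602 (-1.40 ± 0.26, adjusted p = 0.0899). Controls had 1.90, 0.820 and 0.559, the same range as the nitrate libraries. In mixed skin RNA the cells that carry the ST2 transcript cannot be told apart.

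Other members of the axis were less uniform. Crlf2, part of the receptor for the epithelial alarm cytokine TSLP, was at 21.3, 20.7 and 24.3 FPKM with bleomycin and 14.9, 13.1 and 12.3 with nitrate (-0.68 ± 0.19, adjusted p = 0.132). Il4ra, the receptor of interleukin-4 and interleukin-13, was at 33.7, 42.9 and 27.5 FPKM against 26.1, 12.3 and 11.2 (-1.10 ± 0.31, adjusted p = 0.135). Nitrate 1 came close to bleomycin 3 in Il4ra, and in neither gene did the nitrate libraries overlap the bleomycin libraries. The type 2 cytokines themselves were close to the detection limit: Il13 had 12 reads over the bleomycin libraries and 11 over the nitrate libraries, and Il5 had 0 and 1. Il4 was at 1.35, 0.988 and 1.20 FPKM against 0.933, 1.11 and 0.985, groups that overlapped (-0.11 ± 0.16, adjusted p = 0.741). Gata3, which sets the type 2 fate of T cells but is also a gene of the hair follicle, went the other way, at 8.71, 16.3 and 19.7 FPKM against 36.8, 22.4 and 36.6 (1.08 ± 0.33, adjusted p = 0.156). Like the hair keratins it was lowest in bleomycin 1 and highest in nitrate 1 and 3, and its difference was 0.66 with the hair keratin mean as a covariate. Of 12 members of the axis not fixed by the filter, 5 were lower without overlap and 1, Gata3, higher, with a median of -0.64.

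Cd4 had the smallest p of the T cell genes, at 4.67, 5.17 and 5.23 FPKM with bleomycin and 1.82, 1.88 and 0.834 with nitrate (-1.29 ± 0.20, adjusted p = 0.0610). The bleomycin libraries agreed closely, and the controls lay below all of them, at 0.389, 0.915 and 0.528, with nitrate 3 inside the range of the controls. Macrophages and dendritic cells can also express Cd4. Trac, Trbc2 and Cd3g, genes of the T cell receptor complex, had smaller differences, though the added 1 shrinks those of low genes such as Cd3g. Trac, the constant part of the alpha chain of the T cell receptor, was at 4.53, 5.43 and 5.52 FPKM against 2.51, 2.98 and 1.35 (-0.94 ± 0.29, adjusted p = 0.152). Trbc2, its beta chain partner, was at 21.3, 23.5 and 28.9 FPKM against 16.2, 19.9 and 20.3 (-0.37 ± 0.15, adjusted p = 0.231). The CD3 subunit Cd3g was at 1.22, 2.72 and 2.6 FPKM against 1.73, 1.22 and 1.17 and overlapped (-0.39 ± 0.23, adjusted p = 0.402). Of 11 tested of 16 T cell genes, 3 did not overlap, all lower, and the median was -0.37.

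Transcripts of activated and regulatory T cells were scarce. Foxp3, the master factor of regulatory T cells, did not pass the filter, at 0.415, 1.74 and 0.981 FPKM with bleomycin and 0.137, 0.151 and 0.132 with nitrate. Icos, a co-stimulatory receptor, was at 1.29, 3.23 and 3.70 FPKM against 0.477, 1.37 and 0.368, and bleomycin 1 overlapped nitrate 2 (-1.08 ± 0.31, adjusted p = 0.138). Pdcd1, the checkpoint receptor PD-1, had 153 reads over the bleomycin libraries, 20 over the nitrate libraries and 2 in the controls, and was not tested. Tnfrsf18, which encodes GITR and is also made by keratinocytes, overlapped at 7.57, 12.2 and 8.15 FPKM against 9.94, 6.52 and 7.90 (-0.17 ± 0.25, adjusted p = 0.761). Tnfrsf4, another co-stimulatory receptor, overlapped too (-0.36 ± 0.34, adjusted p = 0.618). This list held 12 genes, of which 6 were tested and 2 of those were fixed by the filter. The other 4 had a median of -0.26, and 0 were free of overlap.

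Antibody transcripts did not all behave alike. Igkc, the kappa light chain, was at 7.96, 81.6 and 87.8 FPKM with bleomycin and 0.410, 4.10 and 1.88 with nitrate (-3.88 ± 0.86, adjusted p = 0.114). Jchain, which joins antibody units in plasma cells, was not tested, at 0.536, 7.73 and 7.98 FPKM against 0, 0.824 and 0.146. Bleomycin 1 was low in both genes, and the other two bleomycin libraries carried most of the reads. Ighm, the heavy chain of IgM, did not show this pattern: it overlapped at 17.6, 15.7 and 27.7 FPKM against 18.1, 9.12 and 11, with higher values in the controls, 26.4, 59.7 and 34.7 (-0.65 ± 0.35, adjusted p = 0.370). Igkc and Ighm were the only tested genes of 9 in the B and plasma cell list. The B cell surface gene Ms4a1 did not exceed 0.0705 FPKM in any of the 6 libraries. Mast cell genes split: Hdc, the enzyme that makes histamine, was at 2.47, 4.35 and 3.25 FPKM against 0.810, 1.10 and 0.485 (-1.27 ± 0.22, adjusted p = 0.0801), while Cpa3, a granule protease, overlapped at 26.2, 33.0 and 25.0 against 17.0, 35.3 and 22.2 (-0.22 ± 0.28, adjusted p = 0.719). Of 10 mast cell genes tested, 4 were lower without overlap and 1 higher, and the median was -0.48. Tpsb2 was among the lower, at 43.9, 50.1 and 44.8 FPKM against 17.1, 32.3 and 17.5 (-1.08 ± 0.26, adjusted p = 0.121). So was Fcer1a (-0.83 ± 0.23, adjusted p = 0.133). Mrgprb2 was the higher gene, at 1.09, 1.33 and 1.23 FPKM against 2.05, 1.60 and 1.90 (0.36 ± 0.13, adjusted p = 0.194). Nitrate 2 was the highest nitrate library in 8 of 10 mast cell genes.

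Keratinocyte stress and barrier repair genes had the lowest median of all lists, -2.56 over the 20 members not fixed by the filter, and 16 did not overlap, all lower. Another 4 of the 24 reached 1 FPKM only with bleomycin. The list includes Sprr2 and Lce3 genes, whose products are crosslinked into the cornified layer, and the Stfa protease inhibitors, and single members of these near-identical families cannot be assigned reads with certainty. Lce3c was at 37.4, 17.1 and 19.8 FPKM with bleomycin and 5.48, 5.68 and 3.80 with nitrate, against 0.577, 1.15 and 0.203 in the controls (-2.04 ± 0.31, adjusted p = 0.0598). The nitrate libraries thus lay between the other 2 groups. Stfa3 was at 1657, 1112 and 774 FPKM against 186, 258 and 140.4 (-2.57 ± 0.51, adjusted p = 0.0905).

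The wound keratins showed that the list is not of 1 kind. Krt6b was at 1011, 1039 and 147 FPKM with bleomycin and 149.5, 20.5 and 3.6 with nitrate, and bleomycin 3 and nitrate 1 overlapped (-4.45 ± 1.59, adjusted p = 0.200). Krt16, its usual partner, was at 1364, 1273 and 347 FPKM against 269, 69.7 and 34.9 (-3.26 ± 1.0, adjusted p = 0.156). Krt17, a wound keratin that is also part of the hair follicle, was not lower, at 624, 1029 and 599.9 FPKM against 1158, 637 and 1073 (0.35 ± 0.36, adjusted p = 0.653). Sprr1a behaved like Krt17, at 555, 568 and 645 FPKM against 1026, 534 and 1449.9 (0.65 ± 0.52, adjusted p = 0.539), whereas Sprr1b was at 380.1, 213 and 103 against 46.2, 40.3 and 20.3 (-2.56 ± 0.81, adjusted p = 0.165). Krt17 and Sprr1a were the only members with estimates above 0, and both were highest in nitrate 1 and 3, the libraries with the most hair keratin. With the hair keratin mean as a covariate their differences were -0.01 and 0.08.

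A transcription factor and a growth factor of the wound edge, both already counted in the keratinocyte stress list, were among its lower members. Fosl1, an AP-1 subunit of migrating keratinocytes, was at 20.0, 7.17 and 26.4 FPKM with bleomycin and 2.59, 1.18 and 2.37 with nitrate (-2.49 ± 0.46, adjusted p = 0.0872). Hbegf, a ligand of the EGF receptor, was at 50.4, 12.7 and 20.1 FPKM against 7.99, 5.27 and 4.67 (-1.85 ± 0.45, adjusted p = 0.121). Bleomycin 2 was the lowest bleomycin library of both, and still above all nitrate libraries. Saa3, an acute phase protein, was at 63.7, 30.8 and 20.7 FPKM against 7.67, 0 and 0.565 (-3.89 ± 0.81, adjusted p = 0.0971). Antimicrobial proteins had a median of -0.95 over 11 members, with 4 lower without overlap. Lcn2, which binds the iron carriers of bacteria, was at 35.1, 20.5 and 9.94 FPKM against 7.91, 5.95 and 1.02 (-2.03 ± 0.62, adjusted p = 0.154). The difference of Lcn2 was -0.96 without both bleomycin 1 and nitrate 3. The defensin Defb6 was at 245, 292 and 254 against 208, 474 and 251 (0.15 ± 0.28, adjusted p = 0.820).

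Normal layers of the epidermis differed less than the stress genes. Epidermal differentiation genes had a median of -0.44 over 18, and 3 did not overlap, all lower, among them Alox12b, a lipoxygenase needed for the water barrier, at 32.4, 15.2 and 24.6 FPKM with bleomycin and 8.29, 10.5 and 7.18 with nitrate (-1.33 ± 0.31, adjusted p = 0.116). Krt10, the main keratin of the upper layers, was at 2494, 1269 and 2076 FPKM against 849.7, 2933 and 1551 and overlapped widely (-0.25 ± 0.46, adjusted p = 0.811). The basal keratin Krt5 was at 1263, 1422 and 910.4 FPKM against 1285, 1089 and 974 (-0.09 ± 0.27, adjusted p = 0.895). Krt15, a keratin of basal cells and of hair follicle stem cells, was the 1 gene of 11 in the basal list without overlap, and it was higher, at 52.1, 127 and 131 FPKM against 298, 238 and 342 (1.59 ± 0.34, adjusted p = 0.103). Controls had 363, 325 and 439.7, so the nitrate libraries lay nearer to them than the bleomycin libraries did.

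The major fibrillar collagens did not separate the groups. Col1a1, the most abundant, was at 792, 1214 and 805 FPKM with bleomycin and 740.5, 1063 and 776 with nitrate (-0.11 ± 0.23, adjusted p = 0.829). Col1a2 was at 245, 372 and 286 FPKM against 261, 431 and 304 (0.13 ± 0.23, adjusted p = 0.807), and Col3a1 at 391, 642 and 453 against 347, 475 and 421 (-0.24 ± 0.22, adjusted p = 0.612). Controls had the highest values of all groups, 2451 to 3048 FPKM for Col1a1. Lower values were seen in less abundant collagens: Col12a1, which coats fibrils under tension, was at 50.6, 75.5 and 34.2 FPKM against 21.4, 23.0 and 12 (-1.44 ± 0.36, adjusted p = 0.126), and Col8a1, a short-chain collagen, at 27.4, 14.2 and 26.5 against 9.58, 4.51 and 3.23 (-1.86 ± 0.37, adjusted p = 0.0920). Neither of these overlapped. The fibrillar collagens Col5a1 and Col5a2 were lower without overlap too. Col5a1 was at 61.2, 86.7 and 62.8 FPKM against 35.4, 47.1 and 38.7 (-0.77 ± 0.21, adjusted p = 0.130). Col5a2 was at 48.2, 69.0 and 51.5 FPKM against 33.5, 35.0 and 31.1 (-0.73 ± 0.17, adjusted p = 0.116). Of 13 collagen genes 5 did not overlap, all lower, and the median was -0.35.

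Enzymes that modify and crosslink collagen were mostly lower with nitrate. P4ha3, a subunit of the prolyl hydroxylase that stabilises the triple helix, was at 5.2, 5.69 and 5.28 FPKM with bleomycin and 2.22, 1.24 and 0.972 with nitrate (-1.40 ± 0.18, adjusted p = 0.0598). The bleomycin libraries agreed closely, and controls had 0.918, 1.12 and 1.25. Loxl3, a lysyl oxidase, was at 7.36, 5.39 and 9.99 FPKM against 3.17, 1.77 and 1.24 (-1.50 ± 0.27, adjusted p = 0.0854). Nitrate 3 was the lowest nitrate library of both genes, and neither gene overlapped between bleomycin and nitrate. Lox itself overlapped through nitrate 2, at 56.1, 40.1 and 68.7 FPKM against 25.4, 53.3 and 24.7 (-0.72 ± 0.32, adjusted p = 0.275). Of 15 such genes 7 did not overlap, all lower, with a median of -0.49.

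Matricellular and repair matrix genes had a median of -0.88 over 13, with 8 lower and 1 higher without overlap. Fn1, fibronectin, was at 88.6, 79.3 and 84.6 FPKM with bleomycin and 45.1, 37.6 and 30.5 with nitrate, and controls had 28.9, 57.4 and 31.5 (-1.15 ± 0.25, adjusted p = 0.111). Postn, periostin, was at 159, 200.1 and 152 FPKM against 80.8, 97.0 and 90.4 (-0.92 ± 0.20, adjusted p = 0.108), and Tnc, tenascin C, at 42.7, 85.8 and 41.5 against 25.0, 6.01 and 11.6 (-2.04 ± 0.46, adjusted p = 0.114). All 3 encode proteins of wound matrix, and none overlapped. Fap, a protease of activated fibroblasts, was the gene with higher values, at 1.46, 1.29 and 1.59 FPKM against 1.79, 1.68 and 3.38 (0.39 ± 0.23, adjusted p = 0.414). Timp1, an inhibitor of matrix proteases, was at 39.1, 61.8 and 49.7 FPKM against 18.2, 7.32 and 7.28 (-2.20 ± 0.50, adjusted p = 0.115). The collagenase Mmp13 was at 36.6, 14.9 and 6.75 FPKM against 6.34, 0.551 and 0.963 (-2.56 ± 0.71, adjusted p = 0.132), while the gelatinase Mmp2 was at 115, 131 and 109 against 81.1, 166 and 86.8 (-0.16 ± 0.27, adjusted p = 0.789).

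Members of the TGF-beta list were uneven. Ltbp2, a latent TGF-beta binding protein family member of elastic fibres, was at 17.6, 14.1 and 17.0 FPKM with bleomycin and 6.78, 2.99 and 2.24 with nitrate (-1.89 ± 0.31, adjusted p = 0.0720). The groups did not overlap, and nitrate 1 was the highest nitrate library. Tgfb1, the ligand, was at 17.0, 18.9 and 21.8 FPKM against 16.8, 11.8 and 9.99, and bleomycin 1 and nitrate 1 nearly met (-0.57 ± 0.21, adjusted p = 0.207). Its receptor subunit Tgfbr1 was at 9.47, 10.3 and 10.7 FPKM against 10.2, 9.09 and 7.72 (-0.17 ± 0.11, adjusted p = 0.474). Smad7, a direct target and the inhibitor of the pathway, was not lower, at 5.89, 4.74 and 7.14 FPKM against 9.71, 4.14 and 10.6 (0.33 ± 0.30, adjusted p = 0.599), with nitrate 1 and 3 high and nitrate 2 the lowest of the 6. Over the 13 genes the median was -0.38, and 5 did not overlap, all lower.

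Acta2, the actin of myofibroblasts and vessel walls, overlapped at 86.5, 77.0 and 129 FPKM with bleomycin against 95.6, 46.7 and 89.1 with nitrate (-0.37 ± 0.30, adjusted p = 0.553), and 0 of 9 contractile genes were free of overlap. Fibroblast identity genes had a median of 0.12 over 12 with 2 lower without overlap. One of these was Crabp1, a retinoic acid binding protein, at 82.9, 131 and 73.0 FPKM against 35.8, 23.8 and 32 (-1.59 ± 0.24, adjusted p = 0.0598). The universal fibroblast gene Pdgfra was at 4.88, 6.65 and 5.26 FPKM against 4.0, 9.05 and 5.61 (0.08 ± 0.30, adjusted p = 0.915). Sfrp2, a secreted Wnt modulator of dermal fibroblasts, was at 20.7, 23.7 and 15.9 FPKM against 4.96, 6.44 and 3.93 (-1.79 ± 0.34, adjusted p = 0.0899). Crabp1 and Sfrp2 thus had lower values while a general marker of the same cells did not.

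Higher values with nitrate were fewer and were led by serpins. Serpina3j, of a family of protease inhibitors, was at 17.4, 35.9 and 22.0 FPKM with bleomycin and 121, 210.2 and 89.4 with nitrate, against 108, 121 and 139.7 in the controls (2.41 ± 0.34, adjusted p = 0.0598). Serpinb6e was at 1.85, 3.67 and 2.85 FPKM against 10.5, 20.4 and 20.5, and controls had 12.4, 17.4 and 23.9 (2.23 ± 0.32, adjusted p = 0.0598). Every nitrate library stood above every bleomycin library in both. They belong to clusters of close relatives, so reads may be shared with other members. In both the nitrate libraries lay in or near the control range, and the differences were 2.32 and 1.96 with the hair keratin mean as a covariate (adjusted p = 0.191 for each).

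Among the genes with higher values were Hoxb6, Fzd2 and Lgr5, in which the nitrate libraries stood above both other groups. Hoxb6, a transcription factor of body position, was at 2.31, 1.97 and 2.69 FPKM with bleomycin, 6.08, 6.23 and 11.3 with nitrate and 3.06, 3.48 and 3.28 in the controls (1.37 ± 0.21, adjusted p = 0.0598). Its neighbour Hoxb7 was at 4.13, 5.08 and 4.85 FPKM against 8.75, 7.99 and 12.1 (0.88 ± 0.17, adjusted p = 0.0899). The labels do not say from which site the skin was taken. Fzd2, a Wnt receptor, was at 8.66, 10.1 and 9.50 FPKM against 16.5, 14.5 and 18.5, with controls at 8.84, 9.89 and 8.97 (0.75 ± 0.12, adjusted p = 0.0598). Lgr5, a marker of hair follicle stem cells, was at 1.45, 2.43 and 2.02 FPKM against 5.70, 3.97 and 5.46, with controls at 1.58, 1.90 and 2.10 (1.03 ± 0.17, adjusted p = 0.0720). Control and bleomycin values were alike for Fzd2 and Lgr5, and the nitrate libraries were the highest 3 of the 9. The list of Wnt ligands and targets as a whole did not go 1 way: of 17 tested genes 12 had estimates above 0 and 5 below, with 2 higher and 3 lower without overlap, Sfrp2 among the lower. Its median was 0.49, and 0.02 without both bleomycin 1 and nitrate 3.

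**Figure D5:**
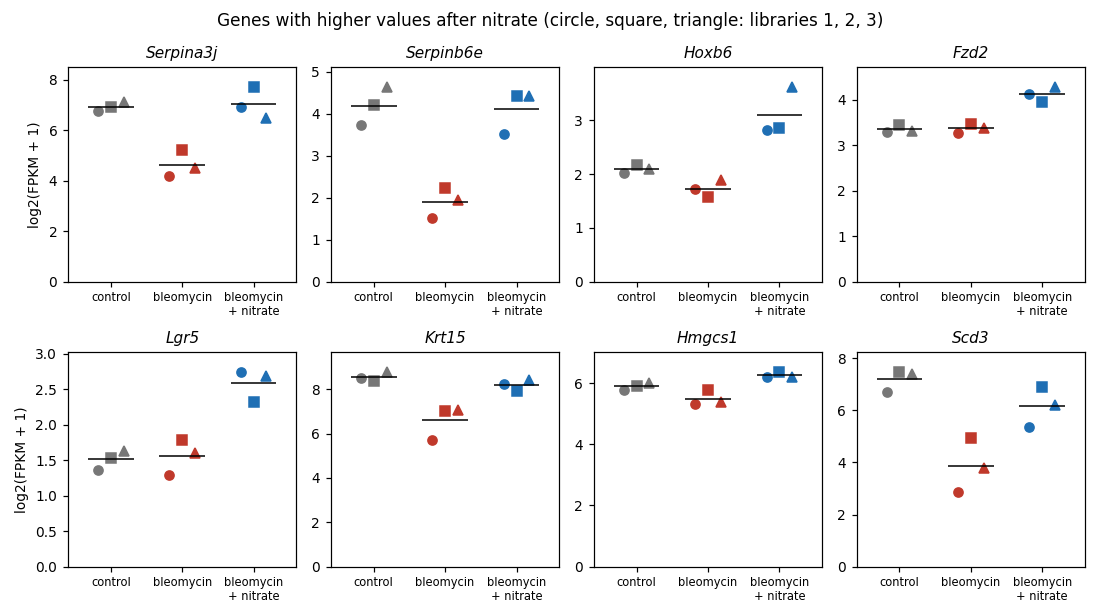
Each panel is 1 gene, with log2(FPKM + 1) on the y axis starting at 0, 1 symbol per library and a line at the group mean for control, bleomycin, and bleomycin with nitrate. For Serpina3j, Serpinb6e and Scd3 bleomycin stands low and nitrate lies nearer control, while for Hoxb6, Fzd2 and Lgr5 nitrate stands above both other groups.

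Hair follicle genes as a whole had higher values with nitrate but with a wide spread. The 21 hair keratin genes had a median of 3.13, and 0 were free of overlap, because nitrate 2, the lowest nitrate library in 21 of 21, never exceeded the highest bleomycin library. Krt71, a keratin of the inner root sheath, was at 16.1, 460 and 1109 FPKM with bleomycin and 2524, 569 and 3817 with nitrate (3.10 ± 2.43, adjusted p = 0.540). The median was 0.68 without both bleomycin 1 and nitrate 3. Regulators of the follicle lineage had estimates above 0 for 18 of 18, a median of 1.10 and 6 without overlap, all higher. Their median was 0.54 without both bleomycin 1 and nitrate 3 and 0.51 with the hair keratin covariate. Besides Lgr5 these include Bmp4, a signal of the dermal papilla, at 2.48, 4.44 and 6.58 FPKM against 14.1, 7.77 and 15.9 (1.32 ± 0.31, adjusted p = 0.119), and Sox9, a factor of follicle stem cells and outer root sheath, at 6.85, 12.4 and 8.43 against 27.6, 17.2 and 18.5 (1.12 ± 0.30, adjusted p = 0.130). Nitrate 2 was the lowest nitrate library in 18 of 18.

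Sebaceous gland and cholesterol genes were also higher. The 11 sebaceous genes had estimates above 0 for 11 of 11, a median of 1.03 and 3 without overlap, all higher. Scd3, a desaturase of sebocytes, was at 6.38, 29.7 and 12.7 FPKM with bleomycin, 40.4, 117 and 73.7 with nitrate and 103, 177 and 165 in the controls (2.29 ± 0.54, adjusted p = 0.119). Cholesterol genes were above 0 for 12 of 13 with a median of 0.66 and 5 higher without overlap. Hmgcs1, which makes the precursor of mevalonate, was at 38.9, 53.2 and 40.5 FPKM against 72.5, 81.4 and 72.9 (0.77 ± 0.14, adjusted p = 0.0872). Every nitrate library of Hmgcs1 stood above every bleomycin library. Fat cell genes had a median of -0.45, with estimates below 0 for 11 of 13. Only 2 of the 13 were lower without overlap, beside 11.6% of all genes not fixed by the filter. Adipoq, adiponectin, was 1 of these 2, at 69.3, 63.5 and 62.3 FPKM against 58.6, 8.02 and 19.9 (-1.56 ± 0.58, adjusted p = 0.206), low in nitrate 2 and 3.

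Genes that handle nitric oxide showed no common direction. Of 23 sought, 18 were tested, with a median of -0.07, 10 below and 8 above 0, and 2 without overlap, both lower. Ddah1, which breaks down natural inhibitors of nitric oxide synthase, was at 10.9, 11.9 and 8.09 FPKM with bleomycin and 4.95, 4.10 and 2.30 with nitrate (-1.27 ± 0.26, adjusted p = 0.0950). Gch1, which makes the cofactor of the synthases, was at 3.18, 3.73 and 4.04 FPKM against 2.87, 2.23 and 2.30 (-0.43 ± 0.12, adjusted p = 0.147). In both genes every nitrate library lay below every bleomycin library. Nos3, the endothelial synthase, was at 6.09, 5.67 and 3.71 FPKM against 2.82, 4.32 and 2.51 (-0.55 ± 0.23, adjusted p = 0.261). The inducible synthase Nos2 did not pass the filter, at 0.681, 0.550 and 1.16 FPKM against 0.482, 0.569 and 0.453. Xdh, an enzyme that can reduce nitrate and nitrite, was at 19.5, 20.0 and 16.5 FPKM against 18.3, 16.1 and 13.3 (-0.23 ± 0.13, adjusted p = 0.410).

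Among vessel genes the adhesion molecules that inflamed endothelium shows to white cells were lower: Vcam1 was at 5.45, 3.80 and 7.87 FPKM with bleomycin and 2.28, 1.36 and 0.847 with nitrate (-1.42 ± 0.26, adjusted p = 0.0872), and Sele, E-selectin, at 7.92, 7.12 and 16.0 against 3.5, 3.07 and 0.632 (-1.79 ± 0.46, adjusted p = 0.127). Pecam1, carried by all endothelium, was at 29.6, 33.3 and 30.9 FPKM against 26.9, 35.1 and 17.6 and overlapped (-0.28 ± 0.22, adjusted p = 0.535). Over 14 endothelial genes the median was -0.25, and 4 did not overlap, all lower. Genes of hypoxia and glycolysis had a median of -0.63 over 12, and 4 did not overlap, all lower. That median was -0.10 without both bleomycin 1 and nitrate 3 and -0.30 without bleomycin 1 alone. Slc2a1, the glucose transporter GLUT1, was at 56.0, 57.7 and 35.2 FPKM against 30.3, 29.5 and 15.9 (-0.97 ± 0.28, adjusted p = 0.137). Cell cycle and mitochondrially encoded genes had medians of 0.18 and -0.07, with 0 of 13 free of overlap in each.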

How the data were processed

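RNA from skin biopsies was sequenced in 9 libraries, grouped by sample title. Per the labels' protocols, RNA came from a column kit and libraries from the SMARTer mRNA kit. Per the submitters' processing notes the build was mm10, and the aligner and counter are not given in the sources used here. A single table deposited by the authors holds FPKM per gene and library with gene lengths, from which whole reads were recovered for 100.0% of values within 0.01. Genes at 1 FPKM in at least 3 of the 6 libraries were tested on log2(FPKM + 1) in 1 limma 3.58.1 fit (R 4.3.3) of 3 group means over 9 libraries, with trend and robust eBayes, two-sided, and Benjamini-Hochberg adjustment over 14050 genes. Using all 9 libraries lets the controls add to the estimate of spread.

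The comparison, the 45 gene lists and the tests were chosen with earlier results of these data known. Genes named were the 12 with the smallest p per direction, the 8 with the largest differences per direction at an unadjusted p under 0.05, up to 4 per list by p, and a set of genes of interest (among them Il1rl1, Il33, Cd4, Foxp3, Col1a1, Tgfb1 and Nos3), of which the text gives a part; some genes of the lists are not reported here. Further list members were named after their values were seen, to show members that overlapped, differed little or went the other way, or were below the filter. Cyr61, Ctgf, Gucy1a1 and Gucy1b1 stood in the table under these older or newer symbols, while 4 genes of the nitric oxide list did not turn up by symbol. Of genes sharing a symbol (102 symbols) the one with the highest mean was taken. The fit was also run on simulated data with 200 changed genes, and the outcome is not given here. Replicate numbers are taken here only as names of libraries. Same-numbered bleomycin and nitrate libraries deviated together for number 3 (correlation 0.36) but not for 1 and 2. Alternatives were other pseudocounts, filters and scalings, voom on recovered reads, a hair covariate, array weights, a replicate block and leaving out libraries. Plots were made in Python 3.11.15 with matplotlib 3.10.9.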

Additional observations from a re-analysis of the deposited data

How the results depend on the processing

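The count of genes passing limma's test at an adjusted p of 0.05 stayed at 0 in 16 of 22 alternatives, among them voom, both other pseudocounts, all filters, only the 6 libraries, array weights and the hair keratin covariate. It was 5 with quantile normalization (1 higher, 4 lower), and the looser adjusted p of 0.10 gave 181. Leaving out 1 library gave 0 to 79 calls: 79 without nitrate 1 (73 lower), 22 without bleomycin 2, and 4 without bleomycin 1 and 4 without bleomycin 3. With the replicate number as a block the count was 23, 8 higher and 15 lower. Same-numbered libraries deviated from their group means with correlations of -0.21, -0.41 and 0.36. Bleomycin 3 and nitrate 3 each correlated best with the other, while bleomycin 1 correlated best with nitrate 2 (0.6). Deviations from a group mean depend on one another, so these correlations cannot show whether the numbers pair libraries. Without both bleomycin 1 and nitrate 3, an alternative chosen after seeing the data, the count was 0.

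In all 113 genes passed in at least 1 alternative and 13 in at least 2. Leaving out genes whose direction the filter had fixed, these were 105 and 11, of which Il1b, Gpr35 and Pmaip1 passed in 4 and Gpr171 and Socs3 in 3. Of 45 list medians 37 kept their sign in every alternative. Those of fibroblast identity, skeletal muscle, endothelial, nitric oxide, mitochondrial, cell cycle, melanocyte and blood genes did not. Of 36 medians of at least 0.3 in size, 11 moved by more than 1.5 times without both bleomycin 1 and nitrate 3, 9 with the hair keratin covariate and 5 to 8 when 1 bleomycin or nitrate library was left out. Among them were those of TGF-beta genes (-0.16) and p53 targets (-0.36) without both libraries. The hair keratin genes themselves make up the covariate, so the change of their own median under it tests nothing.

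Alternatives were followed for 122 of the genes named, with 2654 values. Of these values 2572 kept direction and side of the threshold. Another 53, in 31 genes (some with a direction fixed by the filter), passed the threshold in addition. A further 29 changed sign, in 15 genes whose values lay near 0 or were uneven. These were Pycard and Krt5 with quantile normalization (0.01 each), Pycard with voom (0.01), Defb6 (-0.03), Krt5 (0.02) and Pdgfra (-0.10) with array weights, Ccl27a and Krt17 (-0.01 each), Krt5 (0.01) and Krt71 (-0.43) with the hair keratin covariate, and Pycard (0.03), Krt5 (0.06) and Hba-a1 (0.25) without both bleomycin 1 and nitrate 3. Krt71 is itself among the genes averaged for that covariate, so its value in that fit tests nothing. Leaving out 1 library gave -0.08 to 0.05 for Pycard, -0.18 to 0.04 for Casp1, -0.28 to 0.09 for Col1a1, -0.07 to 0.29 for Col1a2, -0.31 to 0.03 for Tnfrsf18, -0.50 to 0.01 for Cpa3, -0.20 to 0.39 for Defb6, -0.71 to 0.19 for Krt10, -0.27 to 0.05 for Krt5, -0.49 to 0.03 for Mmp2, -0.19 to 0.31 for Pdgfra and -1.53 to 0.08 for Hba-a1. Of 93 named genes with a difference of at least 0.5 in size, 16 moved by more than 1.5 times without both bleomycin 1 and nitrate 3, among them S100a8 (-1.83), S100a9 (-2.03), Ifit3 (-0.95), Krt6b (-2.79), Hbegf (-1.18), Krt15 (1.04), Bmp4 (0.84), Nos3 (-0.31), Slc2a1 (-0.58) and Gclc (0.31).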

Other observations

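AC183097.2, an unprocessed pseudogene outside the rule for named genes and chosen after its values were seen, was at 0.583, 0.640 and 0.503 FPKM in bleomycin 1, 2 and 3 and at 2.62, 3.02 and 3.44 in nitrate 1, 2 and 3, with 0.186, 0.188 and 0.455 in the controls. It reached 1 FPKM in every nitrate library and in no bleomycin library, so the filter fixed its direction, and no test is given. Reads of a pseudogene may belong to its parent gene, and the parent was not sought.

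Clec11a, a growth factor for bone and blood precursors, was at 1.26, 2.40 and 2.13 FPKM with bleomycin and 4.48, 4.33 and 4.16 with nitrate, with 13.4, 15.3 and 13.1 in the controls (0.88 ± 0.16, adjusted p = 0.0812). The nitrate libraries agreed closely and lay between the other 2 groups. Ntpcr, a nucleoside triphosphatase, was at 7.62, 6.98 and 6.53 FPKM against 4.12, 3.33 and 3.30, with 4.62, 4.54 and 4.52 in the controls (-0.81 ± 0.11, adjusted p = 0.0598).

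Antioxidant genes driven by NRF2 had a median of -0.21 over 13, with 5 lower and 2 higher without overlap. Gclc, the enzyme that sets the rate of glutathione synthesis, was at 6.25, 9.86 and 10.3 FPKM against 15.7, 10.4 and 19.9 (0.72 ± 0.25, adjusted p = 0.187). Hmox1, heme oxygenase, was at 46.5, 35.6 and 41.5 FPKM against 28.8, 22.4 and 34.2 (-0.53 ± 0.22, adjusted p = 0.243). Members of this list thus went both ways. The haemoglobin gene Hba-a1, a measure of blood in the sample, was at 214, 50.0 and 446 FPKM against 147, 217 and 37.1 (-0.67 ± 0.85, adjusted p = 0.718), uneven in both groups.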
